A study of Mus musculus with 12 samples.

Results

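Polycomb repressive complex 1 (PRC1) was followed here through 9 of its subunit genes, *Rnf2*, *Ring1*, *Bmi1*, *Cbx2*, *Cbx6*, *Cbx7*, *Cbx8*, *Phc1* and *Phc2*, in mouse macrophages given IL4 alone or with emodin. The members were taken as every non-control array probe whose RefSeq transcript belongs to one of these genes, which gave 12 of the 55681 probes on the array. Of the 9 genes, 8 gave a signal strong enough to be tested, among 20843 genes tested in all. *Cbx7* was the exception. Of the 20843, 13178 had a gene symbol, and each of the others was counted as a gene under its name on the array. Shares and medians of all genes below are taken over all 20843.

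The cells were adherent peritoneal macrophages, titled WT, from C57BL/6 mice of 8 weeks, kept in serum-free medium before treatment. They were treated with vehicle (control), with IL4 at 10 ng/ml, or with that dose of IL4 together with emodin, an anthraquinone found in rhubarb root, at 50 µM, and 4 arrays were run per group. The series title asks how emodin acts on alternative activation, the state that IL4 induces in macrophages. A treatment of 6 h is given in the sample descriptions and an overnight one in the treatment protocol. The tissue label names peritoneal macrophages, whereas the design text names a peripheral white blood cell preparation. The design text calls the 4 samples of a group biological replicates without saying whether mice, pools or dishes were separate, and the p-values therefore reflect only how these samples vary, which may be technical.

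PRC1 is a family of chromatin complexes that keep developmental genes silent. Its catalytic core pairs RNF2 (RING1B) or RING1 (RING1A) with a PCGF protein such as BMI1 (PCGF4) and attaches ubiquitin to histone H2A. In the canonical form of the complex a CBX chromodomain protein reads the methyl mark that the sister complex PRC2 places on histone H3, and a PHC protein compacts chromatin through its SAM domain. In macrophages, PRC2 and the demethylase that removes its mark are known for their part in IL4-driven activation.

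All values below are log2 intensity minus the 75th percentile of the same array, so a level of 0 lies at that percentile and every direction is relative to it. A gene was called where the adjusted p from limma, with Benjamini-Hochberg adjustment over all 20843 genes, lay below 0.05. The 75th percentile of intensity itself was 447 to 516 on emodin arrays, 761 to 813 on IL4 arrays and 633 to 810 on control arrays (two-sided exact permutation p = 0.0286 for emodin against either group, the smallest that 4 against 4 arrays can give). When the arrays were scaled on 6 spike-in control probes instead, the emodin minus IL4 difference had a median of -0.91 over all genes in place of 0.17. Each called rise of a member after emodin is therefore given below with its spike-in value. The emodin arrays had a slide of their own, apart from the slide that held control and IL4, and effects of slide and of emodin cannot be told apart. IL4 arrays lay in a different slide row from control arrays, and these too cannot be told apart. In every group, replicates 1 to 4 lay in slide columns 1 to 4, so replicate number and column cannot be told apart either.

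Arrays 1 and 2 of each group are labelled female and arrays 3 and 4 male. *Xist*, expressed from the inactive X chromosome of females, lay well above background on all 12 arrays, and the Y-linked *Ddx3y*, *Kdm5d*, *Eif2s3y* and *Uty* on none, which goes against the male labels. The fit was therefore repeated on the arrays labelled female alone, and the calls it lost are given beside the members concerned. That fit had only arrays 1 and 2 of each group, so a lost call cannot be read as an effect of sex. Of 11 macrophage markers, 10 were on the array and all 10 lay well above background on every control and IL4 array (9 on every emodin array), with a summed level of 658 to 670 times the 75th percentile in control, 721 to 815 with IL4 and 667 to 790 with emodin. Neutrophil markers summed to 90.5 to 108, 89.5 to 110 and 109 to 142 in control, IL4 and emodin, T cell markers to 4.95 to 5.76, 2.43 to 4.18 and 3.44 to 6.63, and mast cell markers to 0.466 to 1.74, 0.525 to 1.98 and 0.629 to 1.98. Of the T cell genes, *Cd3d* and *Cd3g* were not well above background on any array, whereas *Cd3e*, *Cd2* and *Lck* were on all 12. *Cd3e* fell by 0.95 with IL4 (limma adjusted p = 0.0195) and was higher by 1.03 with emodin than with IL4 (limma adjusted p = 0.00284; -0.05 under spike-in scaling). Of the neutrophil genes, *Ngp* was not well above background on any array and *S100a8*, *Csf3r* and *Camp* were on all 12. The part of these cells in the results was not tested. Correlations between arrays of a group were 0.991 to 0.997.

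**Figure D1:**
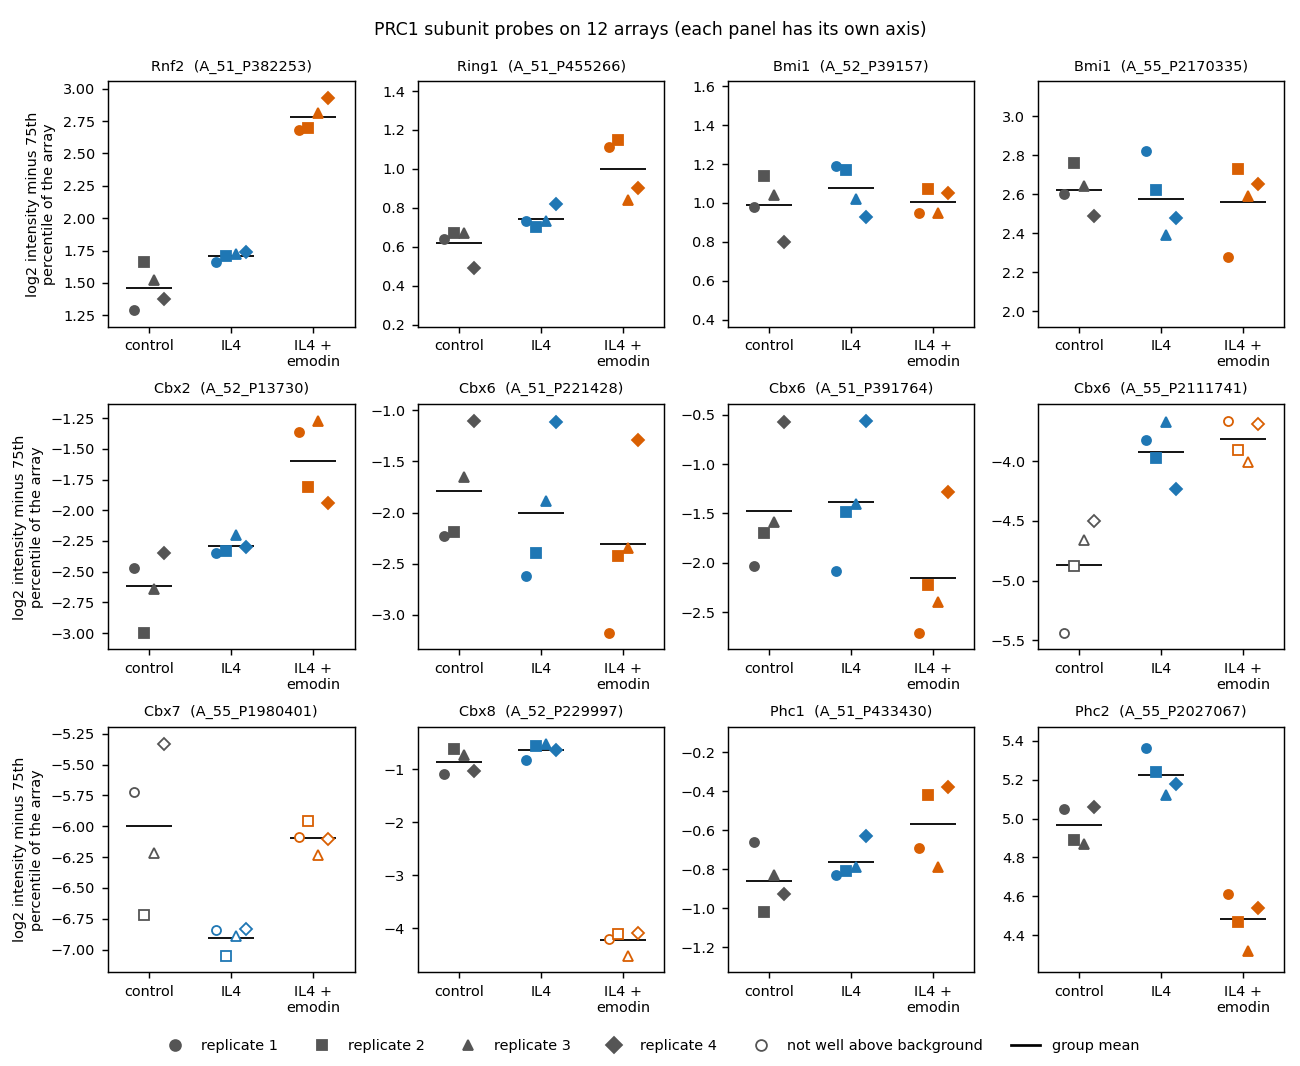
Log2 intensity minus the 75th percentile of the array (y axis, one scale per panel) for the 12 probes of the 9 PRC1 subunit genes in the 3 groups (x axis). Each point is 1 array, its shape the replicate number, an open point a spot not well above background, and the line the mean of 4 arrays. *Cbx8* is at -1.09 to -0.51 without emodin and at -4.52 to -4.08 with it, *Rnf2* at 1.29 to 1.74 without and 2.68 to 2.93 with it, and *Cbx7* has open points throughout.

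Promoter sequence was available for 8 of the 9 members, in 10 RefSeq entries (build GRCm38.p6). The 250 bases before the start site are given for the catalytic paralogs *Rnf2* and *Ring1*, whose signals moved by unequal amounts, and for *Cbx8*, the member that moved furthest. All 3 genes lie on the minus strand, *Rnf2* at chr1:151500992-151501241, *Ring1* at chr17:34024681-34024930 and *Cbx8* at chr11:119040914-119041163. Sequences read 5′ to 3′ in the direction of transcription, and capitals mark matches on either strand to the GC box (GGGCGG), the CCAAT box (CCAAT), the E-box (CACGTG), the TATA box (TATAAA), a STAT6-type site (TTC and GAA spaced by 4 bases) or the cyclic AMP response element (TGACGTCA).
Rnf2: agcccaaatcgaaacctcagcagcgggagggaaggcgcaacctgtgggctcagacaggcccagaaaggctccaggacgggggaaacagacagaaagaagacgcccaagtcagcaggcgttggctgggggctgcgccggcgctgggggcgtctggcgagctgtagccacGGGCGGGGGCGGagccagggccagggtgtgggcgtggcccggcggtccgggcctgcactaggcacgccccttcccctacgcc
Ring1: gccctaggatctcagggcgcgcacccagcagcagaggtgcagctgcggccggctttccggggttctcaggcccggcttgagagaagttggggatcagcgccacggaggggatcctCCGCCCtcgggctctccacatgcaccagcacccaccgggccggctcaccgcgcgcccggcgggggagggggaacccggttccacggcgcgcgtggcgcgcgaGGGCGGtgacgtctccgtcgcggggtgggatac
Cbx8: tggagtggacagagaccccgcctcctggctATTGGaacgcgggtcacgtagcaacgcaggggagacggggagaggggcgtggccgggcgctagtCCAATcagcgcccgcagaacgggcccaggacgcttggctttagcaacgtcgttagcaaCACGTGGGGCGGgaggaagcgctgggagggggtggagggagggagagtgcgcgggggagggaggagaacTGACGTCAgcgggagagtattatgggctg
The *Rnf2* window held 2 adjacent GC boxes, starting 82 and 76 bases before the start site, and no other match. The *Ring1* window held GC boxes starting 135 and 33 bases before it. The *Cbx8* window held CCAAT boxes starting 220 and 156 bases before the start site, an E-box at 98 that abuts a GC box at 92, and a cyclic AMP response element at 29. Over all 32851 promoter windows of this length, 32.7% held a GC box, 33.8% a CCAAT box, 6.0% an E-box and 1.5% a cyclic AMP response element. None of the 10 member windows held the TATA box, found in 12.4% of all windows, or the STAT6-type site, found in 5.9%. CpG pairs numbered 20 for *Rnf2*, 30 for *Ring1* and 22 for *Cbx8*, against a median of 6 over all windows. These matches describe letters, and binding was not measured.

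With IL4 alone none of the 8 tested members passed the threshold without a replicate block. Limma called 0 of the 8 tested members for IL4 against control, where 17.5% of all genes were called (8.98% higher, 8.57% lower), and 2 members, *Rnf2* and *Phc2*, had an unadjusted p below 0.05, as did 29.8% of all genes. The members' differences ran from -0.04 to 0.32 with a median of 0.18, against -0.03 for all genes tested. The 4 IL4 arrays lay clear of the 4 control arrays for *Ring1* and *Phc2*, 2 of 8 members, and for 24.9% of all genes. Same-numbered control and IL4 arrays, which also shared a slide column, deviated together. With the number as a block *Phc2* passed the threshold at 0.25 (limma adjusted p = 0.0143) while no other member did. The block called 2641 genes higher and 2655 lower of 20843, where 1871 and 1786 were called without it.

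Emodin with IL4 moved the subunits in both directions. Against IL4 alone, *Rnf2*, *Ring1* and *Cbx2* were called higher and *Cbx8* and *Phc2* lower, 62.5% of the 8 tested members. The background was 65.9% of all genes, with 39.4% called higher and 26.5% lower, so the share called was near that of all genes. Of the genes called, 59.7% were higher, where quantile scaling gave 48.8% and spike-in scaling 4.18%. Against control the same 5 and *Phc1* were called, 75% against a background of 62.9% (37.3% higher, 25.6% lower; of those called, 59.3% higher, with 47% under quantile and 5.27% under spike-in scaling). The members' median difference was 0.10 against IL4 and 0.11 against control, where that of all genes was 0.17 and 0.15. These comparisons share the emodin arrays. Emodin arrays lay clear of IL4 arrays for *Rnf2*, *Ring1*, *Cbx2*, *Cbx8* and *Phc2*, 5 of 8 members, beside 60.4% of all genes. They lay clear of control arrays for the same 5, beside 54.3% of all genes. A limma interaction between treatment and labelled sex, with 2 arrays per cell, called 0 genes in any of the 3 comparisons (272, 506 and 433 at an unadjusted p below 0.05), and the members' adjusted p was 1. That does not show that the effects were alike.

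**Figure D2:**
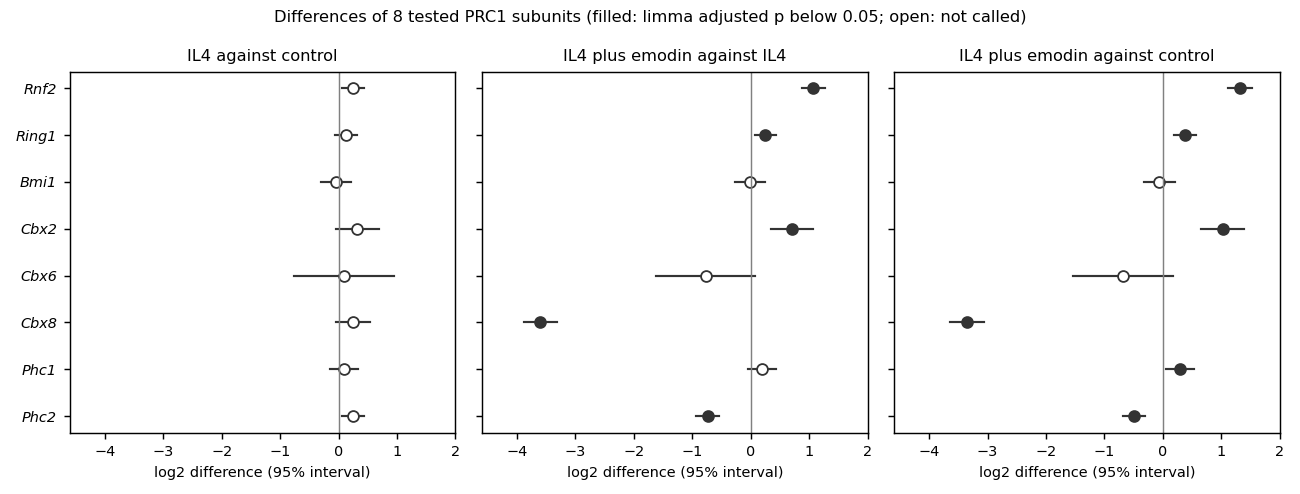
Log2 difference (x axis) of the 8 tested PRC1 subunits (y axis) in the 3 comparisons, with bars for the 95% interval from limma, filled points for an adjusted p below 0.05 and open points for members not called. All 8 are open for IL4 against control, and *Cbx8* lies furthest from 0 in both emodin comparisons, at -3.60 and -3.36 as measured, where its emodin signal is only a bound. Under spike-in scaling the rises of *Ring1* and *Phc1* turned to falls, that of *Cbx2* turned against IL4, and that of *Rnf2* against IL4 came to 0.00.

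The catalytic subunit *Rnf2* (gene 19821, chromosome 1) rose with emodin. Its level was 1.29, 1.66, 1.52 and 1.38 on control arrays 1 to 4, 1.66, 1.71, 1.72 and 1.74 on IL4 arrays and 2.68, 2.70, 2.81 and 2.93 on emodin arrays. All 4 emodin arrays lay above all others, and control and IL4 overlapped. The difference was 1.07 ± 0.09 (SE, n = 4 per group) against IL4, 2.11-fold, with a limma adjusted p of 9.82e-07, and 1.32 ± 0.09 against control (limma adjusted p = 1.9e-07). For IL4 against control it was 0.24 ± 0.09 (limma adjusted p = 0.0903, 95% interval 0.05 to 0.44), and it passed after normexp background correction with quantile scaling (0.33, limma adjusted p = 0.0204) and without control replicate 2 (0.31, limma adjusted p = 0.036). Unscaled intensity was highest with emodin, 3140 to 3660 against 2500 to 2560 with IL4. The spike-in control probes were brighter there too, with a log2 mean of 12 to 12.2 against 11.3 to 11.9 with IL4 (two-sided exact permutation p = 0.0286). The unscaled values therefore do not separate a rise of *Rnf2* from a brighter slide. Under spike-in scaling the difference against IL4 was 0.00 (limma adjusted p = 0.978) and that against control 0.37 (limma adjusted p = 0.0269).

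*Ring1* (gene 19763, chromosome 17), which encodes the alternative catalytic subunit, shifted less. It stood at 0.64, 0.67, 0.67 and 0.49 in control, at 0.73, 0.70, 0.73 and 0.82 with IL4 and at 1.11, 1.15, 0.84 and 0.90 with emodin. The 3 groups did not overlap, with control lowest and emodin highest. The emodin difference was 0.25 ± 0.09 against IL4 (SE, n = 4, limma adjusted p = 0.0207, 1.19-fold) and 0.38 ± 0.09 against control (limma adjusted p = 0.00213). The call against IL4 was lost without IL4 replicate 2 (limma adjusted p = 0.0516), emodin replicate 1 (0.0576) or emodin replicate 2 (0.0602). Its direction was set by the scaling, since spike-in scaling gave -0.83 (limma adjusted p = 0.00013). IL4 against control was 0.13 ± 0.09 (limma adjusted p = 0.36).

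The unequal change of the paralogs can be taken within each array, where a shift of the whole array cancels. *Rnf2* minus *Ring1* rose by 0.82 from IL4 to emodin, a 1.77-fold change of their ratio (SD 0.26 over emodin arrays and 0.05 over IL4 arrays), and by 0.94 from control. The emodin arrays did not overlap either group in this ratio. The pair was chosen after the values were seen, and no test is given.

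*Bmi1* (gene 12151, chromosome 2), the PCGF partner that stimulates the ligase, was level at its brighter probe: 2.60, 2.76, 2.64 and 2.49 in control, 2.82, 2.62, 2.39 and 2.48 with IL4, and 2.28, 2.73, 2.59 and 2.65 with emodin. The 3 groups overlapped. The difference was -0.04 ± 0.12 for IL4 against control (95% interval -0.30 to 0.22) and -0.01 ± 0.12 for emodin against IL4 (-0.27 to 0.25), with limma adjusted p of 0.851 and 0.932. The other probe gave 0.09 and -0.07, also not called. Under spike-in scaling *Bmi1* was called lower with emodin, at -1.09 (limma adjusted p = 2.96e-06), close to the -0.91 median of all genes there.

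The chromodomain genes diverged. *Cbx8* (gene 30951, chromosome 11) encodes a CBX protein that reads the methyl mark on histone H3, and it fell furthest of the tested members. It stood at -1.09, -0.62, -0.73 and -1.02 in control and at -0.82, -0.55, -0.51 and -0.63 with IL4, then at -4.20, -4.10, -4.52 and -4.08 with emodin. The spot was well above background on all 8 arrays without emodin and on none with it, where its intensity was 19.4 to 30 against 462 to 536 with IL4. Because the emodin signal is only a bound, the fall is given as at least 9.89-fold against IL4 (measured -3.60 ± 0.13, limma adjusted p = 1.89e-09) and at least 8.38-fold against control (limma adjusted p = 2.6e-09). The bound sets the mean of the brighter group against the lowest signal of any probe well above background on each emodin array, or the probe's own signal where that is higher. The limit differed between spots, since the dimmest *Cbx6* probe was not well above background at intensities up to 40.4 on emodin arrays. The bound is therefore approximate. *Cbx8* fell under spike-in scaling as well, at -4.68. In bulk RNA of this kind, fewer cells of a type and less RNA per cell cannot be told apart. Of 5 B cell markers, the 3 tested were called lower, and the 5 had a summed level of 1.15 to 2.16 times the 75th percentile with IL4 and 0.354 to 0.548 with emodin. *Cd79b* fell by 2.16 and *Ms4a1* by 2.19, and *Pax5* was not well above background on any array. *Ms4a1* was well above background on only 1 emodin array, so the size of its fall is uncertain. The part of B cells in the *Cbx8* result was not tested. Of the 10 macrophage markers tested, 2 were called higher and 4 lower against IL4. *Fcgr1* fell by 2.89 and *Icam2* by 1.59, the lowest values of that list. *Lyz2* was highest at 0.32 (limma adjusted p = 0.0167), for which no spike-in value is given.

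*Cbx2* (gene 12416, chromosome 11), whose product both reads the mark and compacts chromatin, moved the other way. Its level was -2.47, -3.00, -2.64 and -2.35 in control, -2.35, -2.33, -2.20 and -2.30 with IL4 and -1.36, -1.81, -1.27 and -1.94 with emodin. Emodin arrays lay above all others, and control and IL4 overlapped. The difference was 0.70 ± 0.17 (SE, n = 4, 1.62-fold, limma adjusted p = 0.00288) against IL4 and 1.02 ± 0.17 (limma adjusted p = 0.000212) against control. Spike-in scaling ended both calls, at -0.38 (limma adjusted p = 0.0875) and 0.07 (0.748). The unscaled intensity overlapped, 125 to 199 with emodin and 151 to 167 with IL4.

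*Cbx2* and *Cbx8* lie next to each other on chromosome 11, with 0 RefSeq genes between them. Their emodin differences against IL4 were 0.70 and, as measured, -3.60. *Cbx8* was not well above background on emodin arrays, so the size of its fall is only a lower bound.

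*Cbx6* and *Cbx7* lie on chromosome 15 with 2 genes between them. The brightest of 3 *Cbx6* (gene 494448) probes stood at -2.03, -1.70, -1.59 and -0.57 in control, -2.08, -1.48, -1.40 and -0.56 with IL4 and -2.71, -2.22, -2.40 and -1.28 with emodin. The groups overlapped, and in each of them array 4 was highest and array 1 lowest. The emodin difference was -0.77 ± 0.39 against IL4 (SE, n = 4, limma adjusted p = 0.10, 95% interval -1.63 to 0.08) and -0.68 ± 0.39 against control (limma adjusted p = 0.149). It was called against IL4 without IL4 replicate 1 (-1.01, limma adjusted p = 0.0466), and without emodin replicate 4 it was called against both IL4 (-1.06, 0.0277) and control (-0.97, 0.0426). With the replicate number as a block both differences were called (limma adjusted p = 2.23e-05 against IL4 and 5.22e-05 against control). Between arrays of the same number, emodin minus IL4 was -0.64, -0.74, -1.00 and -0.71, lower in 4 of 4.

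The spread of *Cbx6* over replicate numbers went with that of mesothelial and fibroblast genes. Array 4 exceeded array 1 by 1.47, 1.51 and 1.44 in control, IL4 and emodin. Over arrays 1 to 4 the summed level of the 8 markers was 19.9, 45.9, 46.0 and 85.4 in control, 22.4, 54.6, 60.1 and 110 with IL4 and 28.1, 57.7, 58.9 and 124 with emodin, in units of the 75th percentile. Of the 8, 7 (*Upk3b*, *Wt1*, *Krt19*, *Col1a1*, *Col1a2*, *Col3a1* and *Dcn*) were highest on array 4 and lowest on array 1 in all 3 groups, and *Msln* was highest on array 2. Array 4 exceeded array 1 by at least 1 in all 3 groups for 283 genes, 1.36% of those tested. In the fit without the replicate block, none of the 8 markers was called in any comparison. All of them had differences above 0 for IL4 against control (0.09 to 0.58) and for emodin against control (0.30 to 0.63). Emodin against IL4 ran from -0.17 to 0.31. The spread over replicate numbers enters the error of that fit, and no fit with the block is given for these markers. The missing calls therefore do not show that their level was unchanged. The part of these markers, and of the slide column that followed the number, in the *Cbx6* values was not tested.

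**Figure D3:**
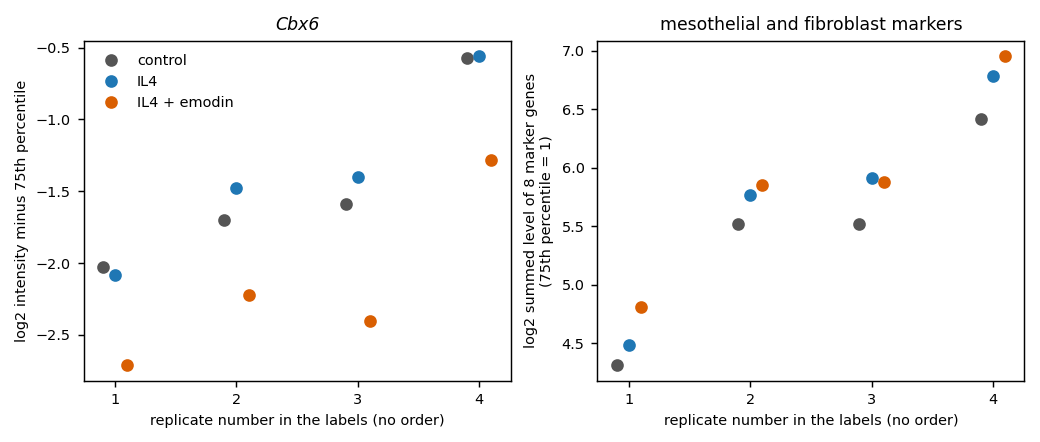
Log2 level of *Cbx6* (left, minus the 75th percentile) and log2 summed level of 8 mesothelial and fibroblast markers (right) by replicate number (x axis). The number has no order in the design and follows the slide column. Each point is 1 array and colour gives the group. In every group number 1 is lowest and number 4 highest in both panels, and the emodin points for *Cbx6* lie below the IL4 point of the same number by 0.64 to 1.00.

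The other *Cbx6* probes did not all follow. The next probe stood at -2.62, -2.40, -1.89 and -1.11 with IL4 and -3.18, -2.43, -2.35 and -1.29 with emodin, a difference of -0.31 that was not called without the block (limma adjusted p = 0.0493 with it, over all probes). The dimmest was well above background on the 4 IL4 arrays only and so passed the filter through that group alone. It is described with no test, at -5.44 to -4.50 in control and -4.23 to -3.67 with IL4, where the other probes gave differences of 0.09 and -0.21. *Cbx7* (gene 52609) had 1 probe, at an intensity of 7.14 to 15.7 in control, 5.76 to 7.12 with IL4 and 5.96 to 8.29 with emodin. It was not well above background on any of the 12 arrays, so no change could be measured for it.

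*Phc2* (gene 54383, chromosome 4), a polyhomeotic gene whose product clusters PRC1 on chromatin, fell with emodin. It was at 5.05, 4.89, 4.87 and 5.06 in control, at 5.36, 5.24, 5.12 and 5.18 with IL4 and at 4.61, 4.47, 4.32 and 4.54 with emodin. The 3 groups did not overlap, with IL4 highest and emodin lowest. The emodin difference was -0.74 ± 0.09 against IL4 (SE, n = 4, 1.67-fold lower, limma adjusted p = 1.42e-05) and -0.49 ± 0.09 against control (limma adjusted p = 0.000411), and both remained falls under spike-in scaling (-1.82 and -1.44). On the arrays labelled female alone the difference against control was -0.43 (limma adjusted p = 0.0553). Without the block given above, IL4 against control was 0.25 ± 0.09 (limma adjusted p = 0.0664). Intensity fell from 26700 to 33300 with IL4 to 8900 to 12400 with emodin. RefSeq lists 3 curated transcripts of *Phc2* with 3 start sites, which the single probe does not separate.

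*Phc1* (gene 13619, chromosome 6), its paralog, stood at -0.66, -1.02, -0.83 and -0.93 in control, -0.83, -0.81, -0.79 and -0.63 with IL4 and -0.69, -0.42, -0.79 and -0.38 with emodin. All 3 groups overlapped. The difference against IL4 was 0.20 ± 0.11 (limma adjusted p = 0.132, 95% interval -0.04 to 0.44), and without emodin replicate 3 it was 0.27 (0.0471). Against control it was 0.29 ± 0.11 (limma adjusted p = 0.0357), a call that ended without control replicate 2, 3 or 4 or emodin replicate 2 or 4 (0.23 to 0.30, limma adjusted p from 0.0577 to 0.102). It also ended with quantile scaling (0.25, 0.0753) and on the arrays labelled female (0.29, 0.241), and spike-in scaling turned the direction (-0.66, 0.00217). Within an array, *Phc1* minus *Phc2* rose by 0.94 from IL4 to emodin and by 0.78 from control without overlap, for a pair chosen after the values were seen. The third polyhomeotic gene, *Phc3*, outside the members and also chosen afterwards, rose by 0.85 ± 0.14 against IL4 (limma adjusted p = 0.000171), which spike-in scaling took to -0.23 (0.276).

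**Figure D4:**
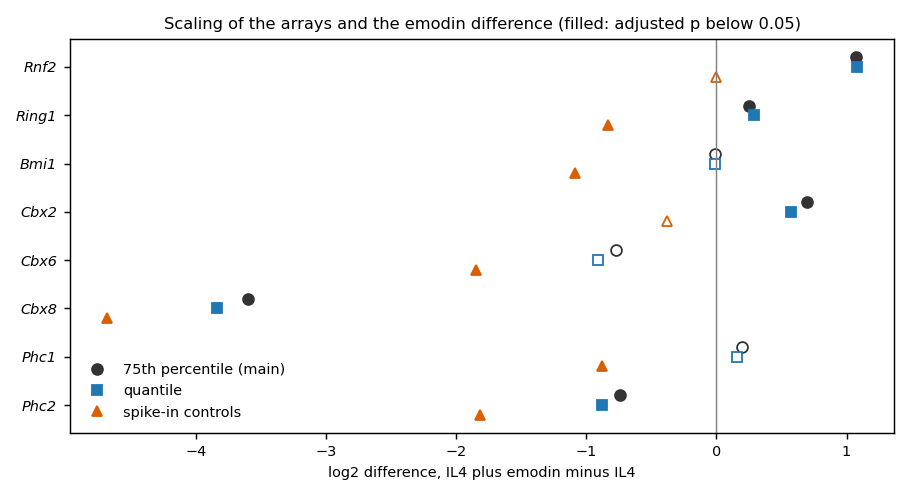
Log2 difference between IL4 plus emodin and IL4 alone (x axis) for the 8 tested PRC1 subunits (y axis) under 3 scalings of the arrays, filled where the limma adjusted p is below 0.05. The 75th percentile and quantile points lie close together, whereas spike-in points lie lower throughout: *Rnf2* at 0.00, *Ring1* at -0.83 and *Phc1* at -0.88, with *Cbx8*, *Phc2* and *Cbx6* below 0 under all 3.

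The remaining PRC1 subunits were split between directions. Of 34 listed names, 31 were tested, and against IL4 emodin raised 11 and lowered 11, 71% beside the background of 65.9%. Their median was -0.05, where that of all genes was 0.17, and under spike-in scaling 0 rose and 27 fell. For IL4 against control 1 rose and 2 fell (9.68% beside 17.5%), and for emodin against control 9 rose and 8 fell (54.8% beside 62.9%). These counts take each gene at its brightest probe. For emodin against IL4, *Csnk2a1* was not called there (-0.16), while its other probes rose by 0.90, 0.84 and 0.60 (limma adjusted p of 3.89e-05 or below). *Bcorl1* was not called at -0.11, and its other probe rose by 0.71 (limma adjusted p = 0.00172). Other probes of *Bcor*, *Dcaf7*, *Fbrsl1*, *Hdac1*, *Pcgf5* and *Yaf2* kept the direction and the call, and that of *Kdm2b* (-0.56) was not called.

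*Pcgf2* (MEL18), the closest relative of *Bmi1*, fell by 1.26 ± 0.29 with IL4 (limma adjusted p = 0.0109). It rose by 1.35 ± 0.29 from IL4 to emodin (limma adjusted p = 0.00153; 0.27 and not called under spike-in scaling). Its level was -3.68 to -2.05 in control, -4.58 to -3.86 with IL4 and -3.01 to -2.62 with emodin. IL4 arrays thus lay below both other groups, 3 of the 4 well above background. Their intensity was only 32.1 to 52.5, so the sizes of both *Pcgf2* differences are uncertain. Its other probe did not pass the filter. That probe was well above background on 2 IL4 arrays and on 0 control or emodin arrays, with means of -5.67, -5.25 and -4.48 in control, IL4 and emodin. *Pcgf6*, a subunit of a variant complex, followed the same course, with -0.45 (limma adjusted p = 0.0159) and then 0.93 (1.81e-05). Spike-in scaling ended both *Pcgf6* calls, at -0.32 (limma adjusted p = 0.141) and -0.15 (0.283). *Csnk2b*, the regulatory subunit of casein kinase 2, rose by 0.29 with IL4 (limma adjusted p = 0.027). Of the PCGF genes outside the naming rule, *Pcgf5* rose by 0.45 with emodin against IL4 (limma adjusted p = 0.000724), which spike-in scaling turned to -0.63, and *Pcgf1* (0.07) and *Pcgf3* (-0.32) were not called. *Hdac1*, a histone deacetylase found in a variant complex, fell by 1.28 ± 0.08 against IL4 (limma adjusted p = 7.14e-08) and by 1.33 against control, and its other probes fell by 1.09 and 1.21 against IL4. *Scml4*, related to the Drosophila gene Scm, fell by 1.23 against IL4 and 1.78 against control. It was well above background on 2 of the 4 emodin arrays (intensity 30.7 to 54.6), so the sizes of its falls are uncertain. *Usp11*, a deubiquitinase, rose by 1.12 against control (limma adjusted p = 2.48e-06), which was 0.17 under spike-in scaling.

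Enzymes that take ubiquitin off histone H2A oppose PRC1. The list taken for them also holds *Asxl1* and *Asxl2*, whose products are not enzymes themselves. None of its 9 tested genes was called by limma for IL4 against control, beside 17.5% of all genes. For 1 of them the unadjusted limma p lay below 0.05, beside 29.8% of all genes. Emodin against IL4 raised 2 and lowered 4, 66.7% against the background of 65.9%, with a median of -0.21, and spike-in scaling gave 1 and 8. *Usp46* stood at -0.33 to -0.14 with IL4 and -2.71 to -1.94 with emodin and fell by 2.24 ± 0.15 (limma adjusted p = 1.78e-07). Its relative *Usp12* fell by 0.85 ± 0.08, and *Usp3* rose by 1.36 ± 0.10 (limma adjusted p = 2.29e-07, and 0.28 under spike-in scaling). *Asxl2* was counted lower at its brighter probe (-0.57), while its other probe had a mean of -0.41 with IL4 and 0.08 with emodin. *Usp16* was also counted lower (-0.33), and its other probe had means of 3.54 and 3.50. The other probe of *Usp3* rose by 1.15.

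PRC2 subunits, which write the mark that CBX proteins read, were called in 10 of 12 genes for emodin against IL4, 8 higher and 2 lower (83.3% against 65.9%). Their median was 0.30 where that of all genes was 0.17, and under spike-in scaling 0 rose and 10 fell. Each gene was counted at its brightest probe. *Aebp2* was called higher there (0.56), while its other probe had a mean of 0.76 with IL4 and -0.26 with emodin. *Phf1* was called lower (-0.47), and its other probe gave -0.02, not called. The other probes of *Ezh1* (1.10 and 0.68) and *Rbbp4* (0.62) rose as the brightest did. The methyltransferase *Ezh2* stood at -0.85 to -0.58 with IL4 and 0.27 to 0.43 with emodin and rose by 1.02 ± 0.08 (limma adjusted p = 7.17e-07), which spike-in scaling took to -0.06. *Rbbp4*, a histone-binding subunit, rose by 0.81 (spike-in -0.27), and *Ezh1*, the alternative methyltransferase, by 0.60 (spike-in -0.48). IL4 against control raised 3 and lowered 1 (33.3% against 17.5%). Of those, *Jarid2* rose by 0.65 and *Mtf2* by 0.60, both accessory subunits, and *Phf1*, a Tudor-domain accessory subunit, fell by 0.66. Against control, emodin raised *Phf19* by 0.99 and *Mtf2* by 0.92, which spike-in scaling took to 0.04 and -0.03, and *Phf1* fell by 1.13 (0.65 at its other probe).

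Classical PRC1 targets were mostly silent. Of 42 listed HOX and cell cycle inhibitor genes, 13 were tested, and the others did not pass the background filter and can show no change. Emodin against IL4 raised 1 and lowered 3 (30.8% against 65.9%), with a median of -0.22, and spike-in scaling gave 1 and 11. *Cdkn1a*, encoding the cell cycle inhibitor p21, stood at 3.11 to 3.45 in control, 4.00 to 4.34 with IL4 and 5.57 to 5.95 with emodin. It rose by 0.79 ± 0.11 with IL4 (limma adjusted p = 0.000447) and by a further 1.60 ± 0.11 with emodin (limma adjusted p = 2.21e-07; 0.52 under spike-in scaling), and its second probe gave 0.42, not called, and 1.09. *Hoxb7* was at least 2.2-fold lower with emodin than with IL4 (limma adjusted p = 0.000388).

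**Figure D5:**
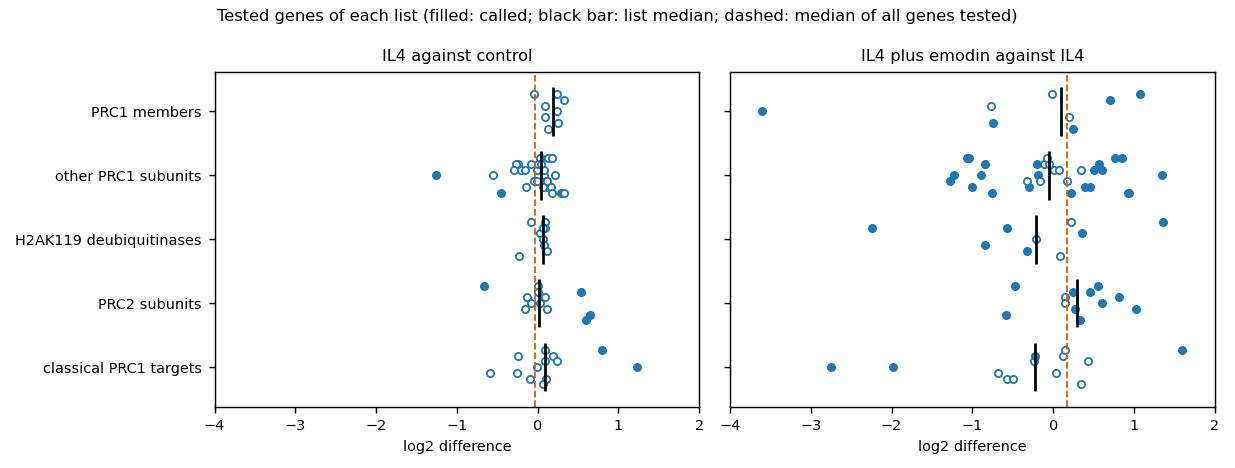
Log2 differences (x axis) of the tested genes in the PRC1 members and 4 related lists (y axis) for IL4 against control (left) and IL4 plus emodin against IL4 (right); filled points were called, black bars are list medians and the dashed line is the median of all 20843 genes. Members spread from -3.60 to 1.07 with emodin around a median of 0.10, the other PRC1 subunits around -0.05 and PRC2 subunits around 0.30. Under spike-in scaling every list median lay below 0 for emodin.

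The genes whose 12 values, centred on their own mean, lay nearest to a member's were found by root mean square difference, over groups and replicates together. For *Rnf2* these were *Mul1* (0.0767) and *Dnajb12* (0.0941), for *Ring1* *Ppara* (0.0743) and *Rab3gap1* (0.0826), and for *Bmi1* *Cep83* (0.0883) and *Scoc* (0.101). *Cbx8* was nearest to *Kcnn4* (0.205) and *Fam43a* (0.226), which themselves differed by -3.61 and -3.24 between emodin and IL4. *Cbx2* was nearest to *4930523C07Rik* (0.161) and *Phactr2* (0.169), and *Cbx6* to *Arhgap29* (0.214) and *Il34* (0.223). *Phc1* was nearest to *Prpmp5* (0.0762) and *Ywhab* (0.0784), and *Phc2* to *Eloa* (0.0683) and *Ppp2r5c* (0.078). Members ranged over 0.54 (*Bmi1*) to 4.01 (*Cbx8*) across the arrays, so these distances cannot be ranked between members.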

How the data were processed

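Total RNA of 12 samples was labelled with Cy3 and read on Agilent arrays. The deposited scanner files hold the intensity of each spot, which the authors extracted and background-subtracted with Agilent Feature Extraction (version 10.7.3.1), per the file headers. The deposited value table holds log2 values, which a recomputation by quantile scaling and centring on each probe's median matched at r = 1.00 on every array; it served as an alternative. Control spots and spots marked as outliers were left out (166 values), and spots of a probe were averaged. Matching transcripts to the RefSeq gene table gave 27509 probes a symbol and left 28172 without. From log2 intensity the 75th percentile of each array was subtracted. Probes were kept (27684) if any group had all 4 arrays well above background, and each gene took its brightest probe. Limma 3.58.1 in R 4.3.3 fitted 3 group means over 12 arrays (9 residual degrees of freedom), with two-sided moderated tests. The fit was tested on simulated data. The number of arrays limits the precision.

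Members and gene lists were chosen with earlier results of these data known. Beyond the members, up to 3 called genes with the largest difference were named per list and comparison, with the 2 genes nearest each member in pattern and adjacent subunit genes; some genes this rule takes are not reported here. Alternatives were quantile, spike-in and other percentile scaling, normexp (offset 50, on the median signal, as the mean signal column was not used here), filters, the deposited table, terms for replicate number and labelled sex, and leaving out each array. After seeing the data, a fit on arrays labelled female was added. Arrays 1 to 4 of control and IL4 deviated together (r = 0.523, 0.311, 0.334 and 0.436), so the numbers were taken to pair them. The main fit has no term for this pairing, and calls and shares come from it unless the block is named. A shared slide column cannot be told apart from such a pairing. Sequences were read with Python 3.11.15 and pandas 2.3.3, and plots drawn with matplotlib 3.10.9.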

Additional observations from a re-analysis of the deposited data

Results flagged for a closer look

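Of 36 sets of 4 arrays (12 probes in 3 groups), 2 held an array far from the other 3, and chance gives about 1 in 20. *Ring1* was 0.49 on control replicate 4, where the nearest control array was 0.64 and the farthest 0.67. *Phc1* was -0.63 on IL4 replicate 4, where the nearest IL4 array was -0.79 and the farthest -0.83.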

How the results depend on the processing

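Over the alternatives other than leaving out arrays, the members' differences kept their direction and side of the threshold in 284 of their values, lost the call in 9, gained it in 10 and reversed in 6. All 6 reversals came from spike-in scaling: *Rnf2* 0.00, *Ring1* -0.83, *Cbx2* -0.38 and *Phc1* -0.88 for emodin against IL4, and *Ring1* -0.57 and *Phc1* -0.66 for emodin against control; the cause was not tested. That scaling called 0 members higher and 6 lower against IL4 (genes: 732 and 16761) and 1 and 6 against control (871 and 15663), and 633 genes lower for IL4 against control, where 74.4% of called genes were then higher in place of 51.2%. Quantile scaling called 48.8% of called genes higher against IL4, where the main scaling called 59.7%. For IL4 against control, normexp called 1 member higher (*Rnf2*) and 2712 or 3023 genes lower, with quantile or percentile scaling. With no filter on dim probes 1 member (*Cbx7*) and 5393 genes were lower for IL4 against control, and 17155 and 14496 genes higher for emodin against IL4 and control. Requiring signal on all 12 arrays left *Cbx8* untested and 1 member lower in each emodin comparison. Arrays labelled female, 2 per group, gave 598 genes higher and 291 lower with IL4, 4708 and 4502 higher with emodin against IL4 and control, and 1 member lower against control. Leaving out 1 array at a time called 0 to 1 members higher for IL4 against control. With the replicate block, 1 member (*Phc2*) was called for IL4 against control. For emodin, number 2 fell short of the correlation of 0.1 required for pairing (r = 0.0934 against IL4 and 0.056 against control), while the other numbers gave 0.31 to 0.515. Every array correlated best with its own number against IL4, and all but number 2 did against control. The block gave 8998 and 6086 genes higher and lower against IL4 and 8608 and 5892 against control, and *Cbx6* was called (-0.77, limma adjusted p = 2.23e-05, and -0.68, 5.22e-05). The block changed no other member's call. Signal over background limited *Cbx7* and *Cbx8*.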
